A study of Mus musculus with 33 samples.

Results

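The S100 proteins are a family of small calcium-binding proteins, and 9 of their genes were read out here in mouse liver: S100a1, S100a4, S100a6, S100a8, S100a9, S100a10, S100a11, S100a13 and S100a16. The members are the rows of the deposited gene count table that carry 1 of these 9 symbols, out of 19169 genes, and all 9 passed the filter on low counts that left 14934 genes to test. Polyadenylated RNA of 33 livers was sequenced from knock-in (KI) mice of genotype Nlrp3A350V/+CreT, which carry a mutant inflammasome sensor whose expression is induced with tamoxifen, and from WT (wild-type) mice. Feeding lasted 6 weeks, on chow that held GS-444217, which inhibits the stress kinase ASK1 (called the ASK1i diet), or on control chow and placebo. There were 10 KI libraries on the ASK1i diet (5 female, 5 male), 5 KI on control chow (1 female, 4 male), 8 WT on the ASK1i diet (4 female, 4 male) and 10 WT on control chow (7 female, 3 male). The knock-in allele is heterozygous. The sources used here do not give the strain, the ages, the tissue in which the Cre is active or the tamoxifen schedule. Whether each library came from a separate mouse is not stated either, so p-values measure only the spread between these libraries.

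An S100 protein has a pair of EF-hand loops, and most of the family bind calcium there. Most work as dimers that open a binding face for a partner protein when calcium rises. S100A8 and S100A9 form calprotectin, a main cytosolic protein of neutrophils that is also made by monocytes and acts outside the cell as a danger signal through TLR4 and RAGE. S100A4, S100A6 and S100A11 are found in motile leukocytes and connective tissue cells, where they bind myosin or annexins. S100A10 differs from the rest in having lost its calcium binding and holds annexin A2 in a stable complex at membranes. S100A1, S100A13 and S100A16 are present in many parenchymal tissues.

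The libraries held 32245902 to 38393481 counts in KI ASK1i, 33754744 to 38584260 in KI control, 30212442 to 40008118 in WT ASK1i and 28099676 to 33572192 in WT control. Levels are given as CPM, counts scaled to the size of the library. On the first principal component of log2 CPM (62.2% of variance) KI and WT stood apart except that the library labelled KI ASK1i replicate 5 lay at -59.2, inside the WT range of -74.1 to -45.9. Nlrp3 stood at 2.10 CPM in this library, against 5.51 to 11.0 CPM in the other 9 KI ASK1i libraries, 7.87 to 15.6 CPM in KI control, 2.38 to 3.88 CPM in WT ASK1i and 1.62 to 4.96 CPM in WT control. Whether this library carries the right label was not tested, so KI ASK1i means, ranges and fold changes that include it hold a library with WT-like levels. It is kept in the values that follow except where stated, and the members' comparisons are also given without it. Alb, the serum albumin of hepatocytes, was abundant in every library, at 20540 CPM or more, whereas the bile duct keratin Krt19 stood at 1.81 CPM or less in every library.

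All 9 members lie on chromosome 3 (build mm10), in blocks on either side of a gap of 2.82 Mb. The first block spans 185 kb, from position 90511034 to 90695721, and holds S100a1 (Entrez 20193, 90511034 to 90514330), S100a13 (20196, 90514435 to 90524581), S100a16 (67860, 90537376 to 90543151), S100a4 (20198, 90603770 to 90606045), S100a6 (20200, 90612894 to 90614414), S100a8 (20201, 90669071 to 90670034) and S100a9 (20202, 90692630 to 90695721). The second block spans 44.1 kb and holds S100a11 (20195, 93520496 to 93526288) and S100a10 (20194, 93555117 to 93564645), which are read in the same direction and separated by 28828 bases. S100a1 and S100a13 are read away from each other from starts 104 bases apart, and S100a8 and S100a9 face each other across 22595 bases. Another 3 family genes of the table, S100a14, S100a3 and S100a7a, also lie in the first block. They and S100b on chromosome 10 and S100g on chromosome X had at most 7 counts in any library and did not pass the filter.

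The promoters of the 5 members whose transcripts rose in KI liver are shown because these genes varied together among KI livers. They come from RefSeq (build GRCm38.p6) and run from 250 bases before to 50 bases after the listed start, written 5′ to 3′. Capitals mark motif matches.
S100a8 promoter, chr3:90668821-90669120, plus strand: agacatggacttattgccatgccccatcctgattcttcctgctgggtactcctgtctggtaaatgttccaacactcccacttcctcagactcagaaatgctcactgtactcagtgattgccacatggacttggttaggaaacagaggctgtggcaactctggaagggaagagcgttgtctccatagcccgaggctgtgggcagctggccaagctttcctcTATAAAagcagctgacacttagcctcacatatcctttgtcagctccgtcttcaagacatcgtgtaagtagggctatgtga
S100a9 promoter, chr3:90695672-90695971, minus strand: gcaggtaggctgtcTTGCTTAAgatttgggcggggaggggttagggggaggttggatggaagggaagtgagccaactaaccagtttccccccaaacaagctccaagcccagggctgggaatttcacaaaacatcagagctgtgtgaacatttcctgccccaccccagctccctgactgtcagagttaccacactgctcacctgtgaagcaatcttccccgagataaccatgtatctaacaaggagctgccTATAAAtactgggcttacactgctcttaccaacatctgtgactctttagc
S100a6 promoter, chr3:90612644-90612943, plus strand: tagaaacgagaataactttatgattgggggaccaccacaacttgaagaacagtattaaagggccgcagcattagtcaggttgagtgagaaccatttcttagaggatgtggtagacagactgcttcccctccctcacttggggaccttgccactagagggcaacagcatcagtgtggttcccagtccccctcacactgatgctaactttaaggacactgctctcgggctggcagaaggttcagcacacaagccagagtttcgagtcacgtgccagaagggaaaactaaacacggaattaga
S100a4 promoter, chr3:90603520-90603819, plus strand: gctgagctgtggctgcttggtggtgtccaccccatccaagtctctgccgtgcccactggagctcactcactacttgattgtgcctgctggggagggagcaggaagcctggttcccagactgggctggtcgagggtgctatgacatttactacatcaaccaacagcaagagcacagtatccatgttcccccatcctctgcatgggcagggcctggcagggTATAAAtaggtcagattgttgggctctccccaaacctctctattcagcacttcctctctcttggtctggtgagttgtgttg
S100a11 promoter, chr3:93520246-93520545, plus strand: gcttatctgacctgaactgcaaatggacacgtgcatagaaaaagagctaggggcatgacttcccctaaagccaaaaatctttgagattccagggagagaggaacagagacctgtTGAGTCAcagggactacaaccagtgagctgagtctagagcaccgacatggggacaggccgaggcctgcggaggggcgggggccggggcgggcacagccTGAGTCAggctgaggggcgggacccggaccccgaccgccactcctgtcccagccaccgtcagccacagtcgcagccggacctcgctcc

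Of the 9 members, 8 had a promoter in this RefSeq table of 32544 promoters. Both strands were searched for the letters TATAAA (the TATA-binding protein), TTGCNNAA (C/EBP), TGANTCA (AP-1), TTCNNNGAA (STAT) and GGANTTTCC (the NF-kB core), and none of the matches overlapped. TATAAA was found in S100a8 at position -30 and in S100a4 at position -31 relative to the listed start. In S100a9 it began at the listed start itself. The letters TATAAA occur in 13.6% of all promoters of this length. S100a9 also held a C/EBP match, TTGCTTAA, at position -236, a motif found in 10.8% of promoters. S100a11 held TGAGTCA at positions -136 and -38, and 7.79% of promoters hold this AP-1 motif. S100a16, which did not rise, held another AP-1 match, TGAATCA at position -192, in its second promoter. S100a6 held none of the 5 motifs. STAT letters occur in 8.33% and the NF-kB core in 1.26% of promoters, and neither was found in a member's window. The S100a11 window held 61.7% G and C and 15 CG pairs, against 51.3% and 2 in S100a9 and medians of 53.0% and 7 over all promoters. Members that did not rise also had such windows, with 61.0% and 11 in S100a1 and 59.3% and 14 in S100a13.

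The design asks what the mutant Nlrp3 allele does to the liver transcriptome. On control chow 5 of the 9 members rose in KI, namely S100a8, S100a9, S100a6, S100a11 and S100a4, and 3 fell, namely S100a10, S100a1 and S100a13. S100a16 did not pass the threshold, an adjusted p of 0.05 over all genes tested. Of all 14934 genes, 56.7% passed it in this comparison, 27.8% higher and 28.9% lower in KI. The share of members called is therefore to be read against a background in which most genes were called. The 5 rises ran from 11.5-fold to 218-fold, whereas the median log2 fold change of all genes was -0.03. The levels of the 5 KI control libraries lay entirely outside those of the 10 WT control libraries for 6 members, the 5 that rose and S100a10, and this held for 29.1% of all genes.

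S100a8, a calprotectin subunit, was measured at 559, 921, 514, 208 and 406 CPM in the 5 KI control libraries, against a lowest of 1.18, a median of 2.14 and a highest of 4.03 CPM in WT control. The lowest KI control library thus stood far above the highest WT control library. The log2 fold change was 7.76 (SE 0.68, edgeR adjusted p = 1.93e-09), 218-fold higher in KI, which placed the gene at rank 28 among the largest rises of the 14934 genes. S100a9, the other subunit, had 829, 1333, 737, 278 and 521 CPM in KI control, against 1.75, 3.74 and 7.06 CPM as the lowest, median and highest of WT control. Its log2 fold change was 7.51 (SE 0.67, edgeR adjusted p = 2.09e-09), or 183-fold, at rank 29. Both subunits were highest in KI control replicate 2 and lowest in KI control replicate 4. In a bulk sample, more cells of a type and more RNA per cell cannot be told apart.

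With the inhibitor in the chow these 2 genes again had the largest differences of the family. S100a8 had a lowest of 1.83, a median of 313 and a highest of 1383 CPM in KI ASK1i, against 0.70, 0.95 and 1.85 CPM in WT ASK1i. S100a9 had 2.86, 387 and 1805 CPM in KI ASK1i, against 0.93, 1.94 and 3.20 CPM in WT ASK1i. The lowest KI values were both those of the library labelled KI ASK1i replicate 5, and the next lowest were 198 CPM for S100a8 and 263 CPM for S100a9. In 9 of the 10 KI ASK1i libraries both genes lay above every WT ASK1i library. The log2 fold changes were 8.55 for S100a8 (SE 0.74, edgeR adjusted p = 6.64e-10) and 8.18 for S100a9 (SE 0.72, edgeR adjusted p = 8.69e-10). Without that library they were 8.75 and 8.38, and with limma-voom in place of edgeR 7.54 and 7.20.

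**Figure D1:**
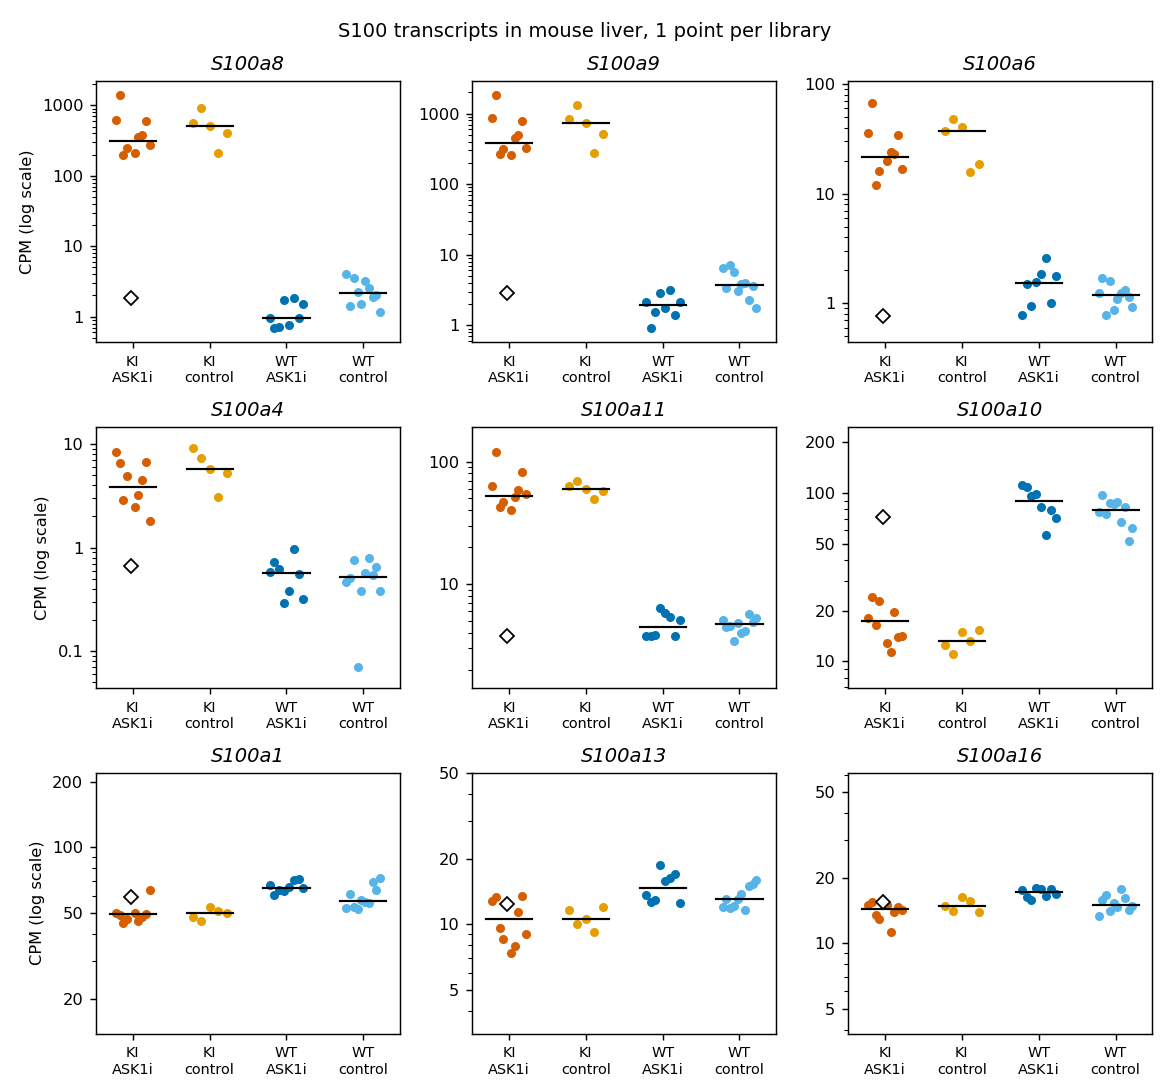
Levels of the 9 S100 transcripts in each liver library, in CPM on log axes, by group; bars are group medians and the open diamond is the library labelled KI ASK1i replicate 5. In 9 of the 10 KI ASK1i libraries and all 5 KI control libraries S100a8 lay at 198 CPM or above, whereas no WT library exceeded 4.03 CPM.

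The ratio of S100a9 to S100a8 counts, a measure of whether the subunit transcripts kept a fixed proportion, was 1.32 ± 0.099 (SD, n = 10) in KI ASK1i, 1.40 ± 0.083 (n = 5) in KI control, 1.78 ± 0.39 (n = 8) in WT ASK1i and 1.78 ± 0.47 (n = 10) in WT control. The ratio was lower in KI ASK1i than in WT ASK1i (two-sided exact permutation test of the mean log2 ratio, p = 0.00174, adjusted over 4 comparisons p = 0.00695; p = 0.000247 without the library labelled KI ASK1i replicate 5). KI control and WT control did not pass (exact permutation p = 0.0912, adjusted p = 0.182). Between the diets the exact permutation p was 0.158 in KI, adjusted 0.21, and 0.929 in WT. Without replicate 5 the exact permutation p within KI was 0.021, at ratios of 1.29 ± 0.051 in KI ASK1i (n = 9) and 1.40 in KI control. The p-values without replicate 5 were not adjusted over comparisons. None of these ratio tests took sex or title set into account. In WT these ratios rest on few reads, with 21 to 122 counts of S100a8 per library.

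S100a6, which binds the adaptor protein calcyclin-binding protein, and S100a4, which binds non-muscle myosin, had low counts in WT liver, with 22 to 89 per library for S100a6. S100a6 had 37.3, 47.7, 40.2, 15.8 and 18.6 CPM in the 5 KI control libraries, against 0.79, 1.19 and 1.72 CPM as the lowest, median and highest of WT control. The KI control libraries fell into 3 high and 2 low values, yet the lowest was still above every WT library. The log2 fold change was 4.67 (SE 0.48, edgeR adjusted p = 9.20e-09), or 25.4-fold. It was 3.91 with the L code of the titles in the model in place of the title set. In ASK1i-fed mice S100a6 had 0.76, 21.4 and 66.5 CPM in KI, against 0.79, 1.52 and 2.61 CPM in WT, a log2 fold change of 4.06 (SE 0.46, edgeR adjusted p = 2.18e-08), and 4.25 without replicate 5. In that library S100a6 lay below every WT ASK1i library.

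S100a4 had 9.20, 7.31, 5.79, 3.12 and 5.24 CPM in KI control, against 0.07, 0.52 and 0.80 CPM in WT control, where the libraries held 2 to 25 counts of it. Its log2 fold change was 3.53 (SE 0.40, edgeR adjusted p = 3.69e-08), or 11.5-fold. In ASK1i-fed mice it had 0.67, 3.88 and 8.46 CPM in KI, against 0.29, 0.57 and 0.97 CPM in WT, a log2 fold change of 2.96 (SE 0.38, edgeR adjusted p = 1.66e-07), and 3.10 without replicate 5. All libraries of the KI groups other than that one lay above the WT libraries of their diet. Of the 50-letter words of the S100a4 transcript, 56.3% also occur in Gm42674, a gene model that is not in the count table. Whether reads were divided between them was not tested.

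S100a11, which binds annexin A1, rose with little spread among KI control libraries. It had 63.7, 70.0, 60.0, 49.3 and 57.9 CPM in KI control, against 3.45, 4.70 and 5.70 CPM in WT control. Its coefficient of variation in KI control was 12.7%, whereas that of S100a8 was 50.1% and that of S100a9 53.3%. The log2 fold change was 3.63 (SE 0.34, edgeR adjusted p = 3.10e-09), or 12.4-fold. With the inhibitor it had 3.75, 52.6 and 120.0 CPM in KI, against 3.74, 4.48 and 6.37 CPM in WT, a log2 fold change of 3.53 (SE 0.33, edgeR adjusted p = 1.54e-09), and 3.71 without replicate 5. Of the words of its transcript, 41.1% also occur in Gm12854, Gm7665 or Gm29240, none of which is in the count table. Whether reads were divided among them was not tested.

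S100a10, the partner of annexin A2 in the annexin heterotetramer, was the 1 member with a large fall, although its gene is the neighbour of S100a11. It had 12.4, 11.1, 14.8, 13.1 and 15.3 CPM in KI control, against 51.5, 79.3 and 97.0 CPM in WT control. The groups did not overlap, and the log2 fold change was -2.35 (SE 0.29, edgeR adjusted p = 1.52e-07), 5.09-fold lower in KI. With the L code in the model in place of the title set it was -1.49 (edgeR adjusted p = 0.00212). With the inhibitor it had 11.4, 17.2 and 71.96 CPM in KI, against 56.1, 89.1 and 110.8 CPM in WT, a log2 fold change of -1.97 (SE 0.22, edgeR adjusted p = 1.74e-08). The KI value of 71.96 CPM belonged to the library labelled KI ASK1i replicate 5. The next highest was 24.1 CPM, and without that library the log2 fold change was -2.31.

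The transcript of its partner moved the other way. Anxa2 stood at 46.8 ± 9.09 CPM in KI control (SD, n = 5) and 11.1 ± 2.05 CPM in WT control (n = 10), a log2 fold change of 2.07 (SE 0.30, edgeR adjusted p = 1.20e-06). The ratio of S100a10 to Anxa2 CPM, not corrected for length, was 0.297 ± 0.082 in KI control (SD, n = 5) and 7.14 ± 1.56 in WT control (n = 10). In ASK1i-fed mice it was 0.487 ± 0.20 in KI without replicate 5 (n = 9; 1.45 ± 3.06 with it, n = 10) and 7.02 ± 2.32 in WT (n = 8). No KI library other than replicate 5 exceeded 0.894, and no WT library lay below 4.03.

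The remaining 3 members changed little. S100a1, a regulator of calcium handling known best from heart muscle, had 47.6, 45.7, 53.0, 50.7 and 49.9 CPM in KI control, against 51.9, 56.6 and 71.9 CPM in WT control. Of the 5 KI control libraries 4 lay below every WT control library, and the log2 fold change was -0.31 (SE 0.076, edgeR adjusted p = 9.75e-04). On the ASK1i diet S100a1 had 44.7, 49.2 and 63.4 CPM in KI, against 60.3, 65.2 and 71.1 CPM in WT, a log2 fold change of -0.40 (SE 0.062, edgeR adjusted p = 3.01e-06), and -0.45 without replicate 5. With numbered titles alone the call on control chow was lost (log2 fold change -0.21, edgeR adjusted p = 0.0595).

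S100a13, which takes part in the release of fibroblast growth factor 1 and interleukin-1 alpha, had 11.6, 10.0, 10.6, 9.18 and 12.0 CPM in KI control, against 11.7, 13.1 and 16.0 CPM in WT control. The log2 fold change was -0.33 (SE 0.14, edgeR adjusted p = 0.0420). The call was kept in 13 of 33 fits that each left out 1 library and lost in the others, with an edgeR adjusted p of up to 0.152 without KI control replicate 4. Under the inhibitor S100a13 had 7.41, 10.6 and 13.5 CPM in KI, against 12.5, 14.8 and 18.8 CPM in WT (log2 fold change -0.51, SE 0.11, edgeR adjusted p = 3.20e-04), and -0.55 without replicate 5. Of its cargo genes, Fgf1 fell (log2 fold change -1.70, SE 0.24, edgeR adjusted p = 1.21e-06) and Il1a rose (1.45, SE 0.23, edgeR adjusted p = 4.66e-06) in KI on control chow.

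S100a16, a broadly expressed member, had 14.8, 14.1, 16.4, 15.7 and 13.9 CPM in KI control, against 13.3, 15.1 and 17.8 CPM in WT control. The groups overlapped, and the log2 fold change was -0.03 with a 95% interval of -0.18 to 0.12 (edgeR adjusted p = 0.741). Under the inhibitor it had 11.3, 14.4 and 15.6 CPM in KI, against 15.8, 17.2 and 18.1 CPM in WT, a log2 fold change of -0.26 (SE 0.060, edgeR adjusted p = 3.72e-04), and -0.28 without replicate 5. In males alone the ASK1i diet calls of S100a16 (log2 fold change -0.13, edgeR adjusted p = 0.163) and S100a13 (-0.38, edgeR adjusted p = 0.0725) were lost.

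In all, 5 members rose and 4 fell in KI on the ASK1i diet, where 59.1% of all genes were called, 30.3% higher and 28.8% lower. The libraries of the genotypes did not overlap for 1 member, S100a16, against 6.27% of all genes. Without replicate 5 they did not overlap for 7 members, all but S100a1 and S100a13, against 25% of all genes. The 2 comparisons of genotype use different libraries, and every member called in both had the same sign in both. The difference between them, the interaction of genotype and diet, passed the threshold for none of the 9 members, as for 0% of all genes. At an unadjusted p under 0.05 the interaction held 1251 genes, 1 of them a member, S100a16 (log2 difference -0.23, 95% interval -0.42 to -0.04, edgeR adjusted p = 0.540).

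**Figure D2:**
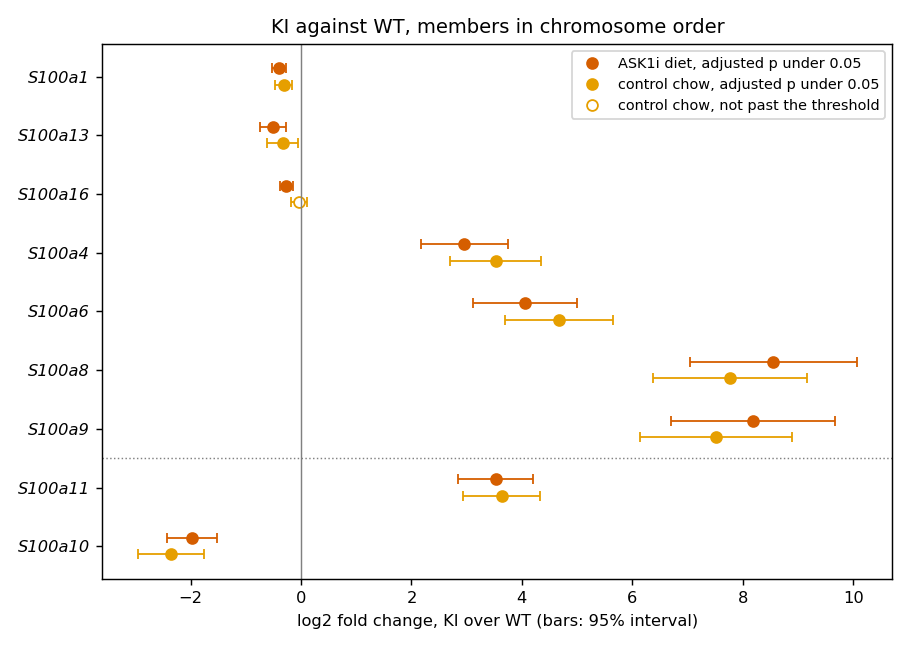
Log2 fold change of KI over WT for each member in chromosome order, on the ASK1i diet and on control chow, with 95% intervals; filled points passed an adjusted p of 0.05 and the dotted line marks the gap between the blocks. S100a8 and S100a9 lay furthest right, at 8.55 and 8.18 on the ASK1i diet and 7.76 and 7.51 on control chow, and S100a10 was the furthest left at -1.97 and -2.35.

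On control chow, in the first block, S100a1 and S100a13 at one end fell, S100a16 did not pass and the 4 members from S100a4 to S100a9 rose. In the second block S100a11 rose and S100a10 fell. Of the genes within 50 kb of a block that are no family members, 4 were tested. Npr1, the receptor of atrial natriuretic peptide, fell in KI on control chow (log2 fold change -0.60, SE 0.097, edgeR adjusted p = 6.45e-06). Ilf2, Snapin and Chtop had log2 fold changes of 0.06, -0.05 and -0.07 and did not pass.

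The titles carry an L code of unstated meaning, and no L code holds KI control and WT control libraries together. Among the titles marked P, the 1 KI control library stood 7.97 log2 units above the mean of the 2 WT control libraries for S100a8, 3.49 above for S100a11 and -1.88 from them for S100a10. This KI control library is coded L1 and these WT control libraries L8, so this comparison crosses L codes. Among L1 libraries the 4 KI ASK1i libraries differed from the 2 WT ASK1i libraries by 8.25 for S100a8, 8.10 for S100a9, 4.09 for S100a6, 2.94 for S100a4, 3.78 for S100a11 and -2.37 for S100a10 in mean log2 CPM. The differences among P titles and among L1 libraries have the signs of the pooled ones, but only the latter were taken within 1 L code. With the L code in the model 8 members were called on control chow and all 9 under the inhibitor.

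Levels were compared between members after division by transcript length, as CPM per kilobase (kb). Lengths ran from 486 bases for S100a8 to 1123 bases for S100a16. In WT control S100a10 led with 113 ± 20.3 CPM per kb (SD, n = 10), followed by S100a1 with 87.4 ± 10.5, S100a13 with 18.8 ± 2.20, S100a16 with 13.6 ± 1.21 and S100a11 with 9.10 ± 1.32. S100a9, S100a8, S100a6 and S100a4 came last, from 7.97 ± 3.39 to 1.03 ± 0.42 CPM per kb. S100a10 exceeded S100a1 in 8 of 10 WT control libraries and S100a11 exceeded S100a9 in 7, so these neighbours in the order were not separated, whereas S100a1, S100a13, S100a16 and S100a11 had ranges that did not touch. The order was the same in WT ASK1i.

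In KI control the order was S100a9 (1425 ± 760 CPM per kb, SD, n = 5), S100a8 (1073 ± 537), S100a11 (118 ± 14.9), S100a1 (73.0 ± 4.20), S100a6 (43.7 ± 19.2), S100a10 (19.5 ± 2.51), S100a13 (14.9 ± 1.62), S100a16 (13.3 ± 0.95) and S100a4 (12.3 ± 4.58). S100a8, S100a11, S100a1 and S100a6 had separate ranges, while S100a16 exceeded S100a4 in 3 of 5 libraries and the 2 could not be ordered. In KI ASK1i the same order was found, with and without replicate 5. By the means S100a10 came sixth in KI liver and first in WT liver, although S100a6 exceeded it in 7 of 10 KI ASK1i libraries only and it exceeded S100a1 in 8 of 10 WT control libraries only.

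The sum over the 9 members was 2230 ± 1840 CPM per kb in KI ASK1i (SD, n = 10; 2460 ± 1800 without replicate 5), 2790 ± 1330 in KI control (n = 5), 280 ± 22.5 in WT ASK1i (n = 8) and 257 ± 18.0 in WT control (n = 10). S100a8 and S100a9 together made up 77.3% of this sum in KI ASK1i (85.4% without replicate 5), 87.7% in KI control, 2.25% in WT ASK1i and 5.04% in WT control. S100a1 and S100a10 together made up 12.8% in KI ASK1i (5.36% without replicate 5), 4.11% in KI control, 80.3% in WT ASK1i and 77.7% in WT control. Of all counts of a library, S100a8 and S100a9 took 0.104% ± 0.104 in KI ASK1i (0.116% ± 0.104 without replicate 5), 0.139% ± 0.078 in KI control, 0.000301% ± 0.000113 in WT ASK1i and 0.000639% ± 0.000259 in WT control.

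**Figure D3:**
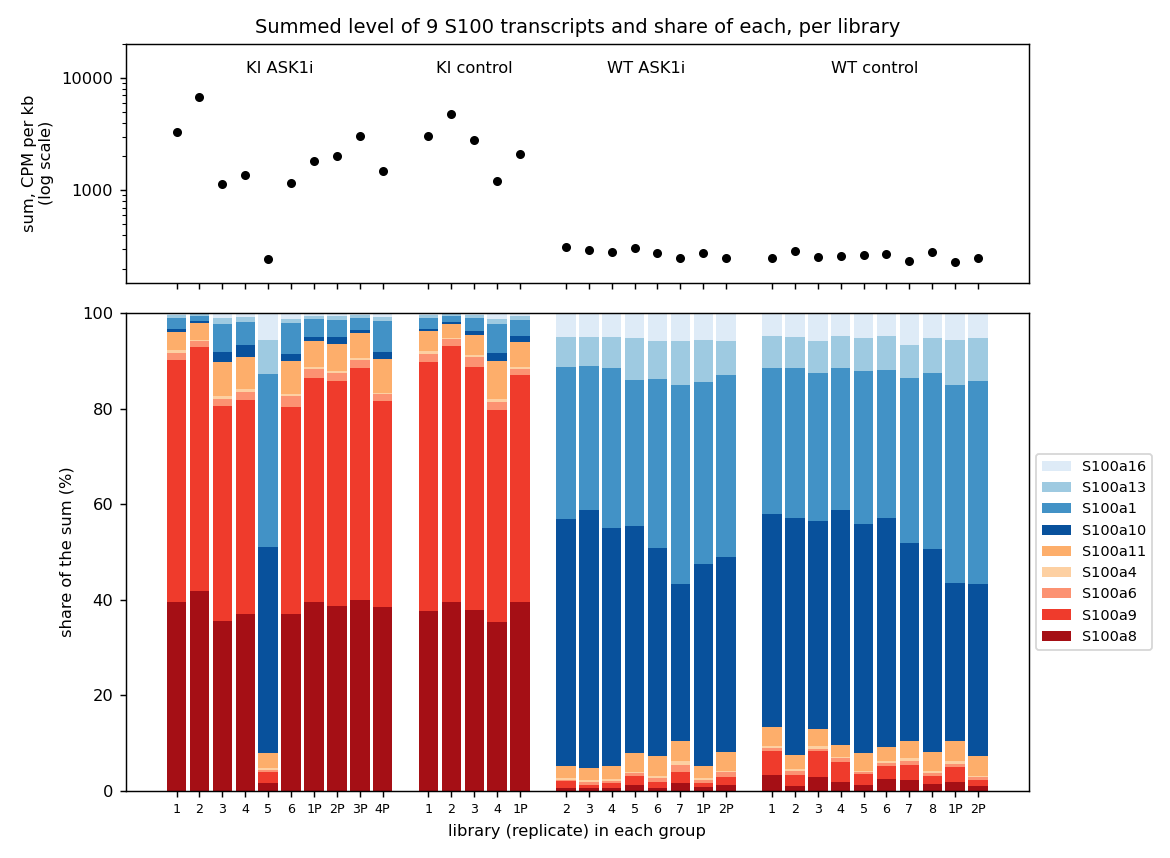
Top, sum of the 9 members in CPM per kb on a log axis, 1 point per library; bottom, share of each member in that sum in percent. The KI libraries other than KI ASK1i replicate 5 lay at 1140 CPM per kb or above and were mostly S100a9 and S100a8, and the WT libraries lay between 227 and 311 CPM per kb and were mostly S100a10 and S100a1.

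Markers of leukocytes differed between the genotypes along with the members that rose. In KI on control chow 27.8% of all genes rose and 28.9% fell, beside which the counts of the marker lists stand. Of 17 neutrophil markers tested, 16 rose and none fell in KI on control chow, with a median log2 fold change of 5.89. Mmp8, a granule collagenase, was 7.11 log2 units higher (SE 0.60, edgeR adjusted p = 1.70e-09), Itgam 4.50 (SE 0.40) and the chemokine receptor Cxcr2 5.89 (SE 0.52). Fpr1, a formyl peptide receptor, had the smallest p of the list between the diets in KI (-0.40, edgeR adjusted p = 0.563). The summed level of the 17 markers ran from 22.0 to 2370 CPM in KI ASK1i (396 to 2370 without replicate 5), 434 to 1990 CPM in KI control, 18.5 to 49.2 CPM in WT ASK1i and 23.3 to 46.8 CPM in WT control. Mpo, the granule peroxidase, was at 0 in no KI library, in 4 of 8 WT ASK1i and in 2 of 10 WT control libraries. The library labelled KI ASK1i replicate 5 held only 1 count of Mpo, and the other KI ASK1i libraries held 409 or more. Ly6g, which was also on the list, has no row in the count table. The part of neutrophil content in the rise of the members was not tested.

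Monocyte markers rose in 12 of 14 cases and fell in none in KI on control chow, with a median of 3.07. Chil3 was 8.78 log2 units higher (SE 0.75, edgeR adjusted p = 1.75e-09), Plac8 3.42 (SE 0.36) and Lyz2 2.19 (SE 0.23). Lyz2 also had the smallest p of the list between the diets in KI (-0.55, edgeR adjusted p = 0.449). Their summed level ran from 433 to 1640 CPM in KI ASK1i (790 to 1640 CPM without replicate 5), 1100 to 1460 CPM in KI control, 482 to 579 CPM in WT ASK1i and 473 to 568 CPM in WT control. All 12 Kupffer cell markers tested rose, with a median of 1.72, among them C1qb (2.07, SE 0.23), C1qc (1.96, SE 0.22), C1qa (1.87, SE 0.23) and Clec4f (1.30, SE 0.21). Folr2 had the smallest p of these between the diets in KI (-0.44, edgeR adjusted p = 0.463). The part of these cells in the members' differences was not tested.

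Where not stated otherwise, the changes in this paragraph are KI against WT on control chow, where 27.8% of all genes rose and 28.9% fell. Of 14 fibroblast markers 11 rose and none fell, led by Vim (log2 fold change 2.16, SE 0.26), Col1a1 (3.07, SE 0.40) and Col3a1 (2.52, SE 0.33). Lum, a matrix proteoglycan, was 1 of the 8 genes of the whole table called between the diets in KI (-0.97, SE 0.18, edgeR adjusted p = 0.0306). Of 13 T and NK cell markers 7 rose, Cd28 (4.67, SE 0.45) and Gzmb (2.58, SE 0.37) among them, and 1 fell, Zap70 (-1.99, SE 0.27), and Cd3d had a log2 difference of -0.64 between the diets in KI (edgeR adjusted p = 0.450). Of 12 endothelial markers 7 rose, led by Pecam1 (0.92, SE 0.13), Vwf (1.02, SE 0.19) and Cdh5 (0.67, SE 0.14), and 1 fell, and Stab2 had -0.34 between the diets in KI (edgeR adjusted p = 0.365). Of 11 bile duct markers 2 rose, Cd24a (2.84, SE 0.42) and Sox9 (2.01, SE 0.33), and 3 fell, Krt23 (-5.57, SE 0.79) among them. Krt19 did not pass (-0.22) and Pkhd1 had -0.22 between the diets in KI (edgeR adjusted p = 0.603). Of 12 hepatocyte markers 1 rose, Fgb (1.42, SE 0.19), and 8 fell, Alb (-1.54, SE 0.20) and Ttr (-1.50, SE 0.20) among them, and Apob had 0.24 between the diets in KI (edgeR adjusted p = 0.469). The summed hepatocyte level ran from 53700 to 130000 CPM in KI ASK1i (53700 to 91400 CPM without replicate 5), 52400 to 78000 CPM in KI control, 120000 to 163000 CPM in WT ASK1i and 123000 to 152000 CPM in WT control, beside the fall of S100a10. On the ASK1i diet, where 30.3% of all genes rose and 28.8% fell in KI, 7 fibroblast markers rose and 1 fell. There 5 T and NK cell markers rose and 1 fell, and 5 endothelial markers rose and 1 fell. Of the bile duct markers 3 rose and 3 fell on that diet, and of the hepatocyte markers 3 rose and 6 fell.

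Among the 14 KI libraries without replicate 5, the members that rose varied together. S100a8 and S100a9 had Pearson's r = 0.996 (permutation p = 1e-05, the smallest 100000 permutations can give; Spearman's rho 0.982, permutation p = 1e-05; adjusted over 144 relations p = 1.20e-04 for r and 1.60e-04 for rho). Leaving out the 2 libraries farthest from the median of S100a8 gave r = 0.994, and the 9 numbered KI libraries gave r = 0.998. S100a6 followed S100a8 with r = 0.949 (rho 0.908, permutation p = 1e-05 and 2e-05, adjusted p = 1.20e-04 and 2.62e-04; 0.906 without the 2 farthest, 0.966 in numbered libraries). S100a11 followed S100a8 with r = 0.920 (rho 0.947, permutation p = 1e-05 for both, adjusted p = 1.20e-04 and 1.60e-04; 0.888 without the 2 farthest, 0.938 in numbered libraries). Within the 9 KI ASK1i libraries alone r was 0.998 for S100a8 and S100a9, 0.970 for S100a6 and S100a8 and 0.961 for S100a8 and S100a11.

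S100a4 followed the mean log2 level of the 14 monocyte markers with r = 0.934 (rho 0.921, permutation p = 1e-05 for both, adjusted p = 1.20e-04 and 1.60e-04; 0.878 without the 2 farthest, 0.900 in numbered libraries). With the neutrophil markers S100a4 had r = 0.842 (rho 0.886, permutation p = 2e-04 and 5e-05, adjusted p = 0.00192 and 6e-04; 0.916 without the 2 farthest, 0.857 in numbered libraries). The 2 farthest libraries need not be the same for both lists, so the values without them do not order the lists. Within the 9 KI ASK1i libraries S100a4 had r = 0.941 with the monocyte and 0.817 with the neutrophil markers. Other members also passed with the monocyte markers over the 14 libraries (r, adjusted permutation p). They were S100a13 (0.793, 0.0052), S100a9 (0.787, 0.00569), S100a8 (0.755, 0.011), S100a11 (0.71, 0.0212) and S100a6 (0.696, 0.0252). With the neutrophil markers S100a6, S100a8, S100a11 and S100a13 passed too, with r from 0.717 (S100a13) to 0.982 (S100a8). With the fibroblast markers S100a4 passed for r (0.694, adjusted permutation p = 0.0287) but not for rho (0.0585). S100a9 had r = 0.990 with the mean log2 level of the 17 neutrophil markers (rho 0.987, permutation p = 1e-05 for both, adjusted p = 1.20e-04 and 1.60e-04; 0.980 without the 2 farthest, 0.998 in numbered libraries). S100a13 followed 4 of the 5 rising members, most closely S100a11 with r = 0.784 (rho 0.824, permutation p = 3.2e-04 and 6.2e-04, adjusted p = 0.00288 and 0.00388; 0.724 without the 2 farthest, 0.819 in numbered libraries), although its level was lower in KI than in WT. For S100a6 and S100a13 r was 0.585 (rho 0.521, permutation p = 0.0283 and 0.0582, adjusted p = 0.0993 and 0.175), which did not pass. Over these 14 libraries, which pool the diets, no relation of S100a10 with another member passed. Its largest r was 0.367, with S100a13 (rho 0.345, permutation p = 0.196 and 0.227, adjusted p = 0.382 and 0.468). Within the 9 KI ASK1i libraries r of S100a10 with the 5 rising members ran from 0.306 (S100a6) to 0.531 (S100a4). There it was 0.479 with S100a13, 0.37 with S100a16 and -0.186 with S100a1. These values within KI ASK1i were not tested. The P titles held 5 KI libraries, too few for a value of their own.

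**Figure D4:**
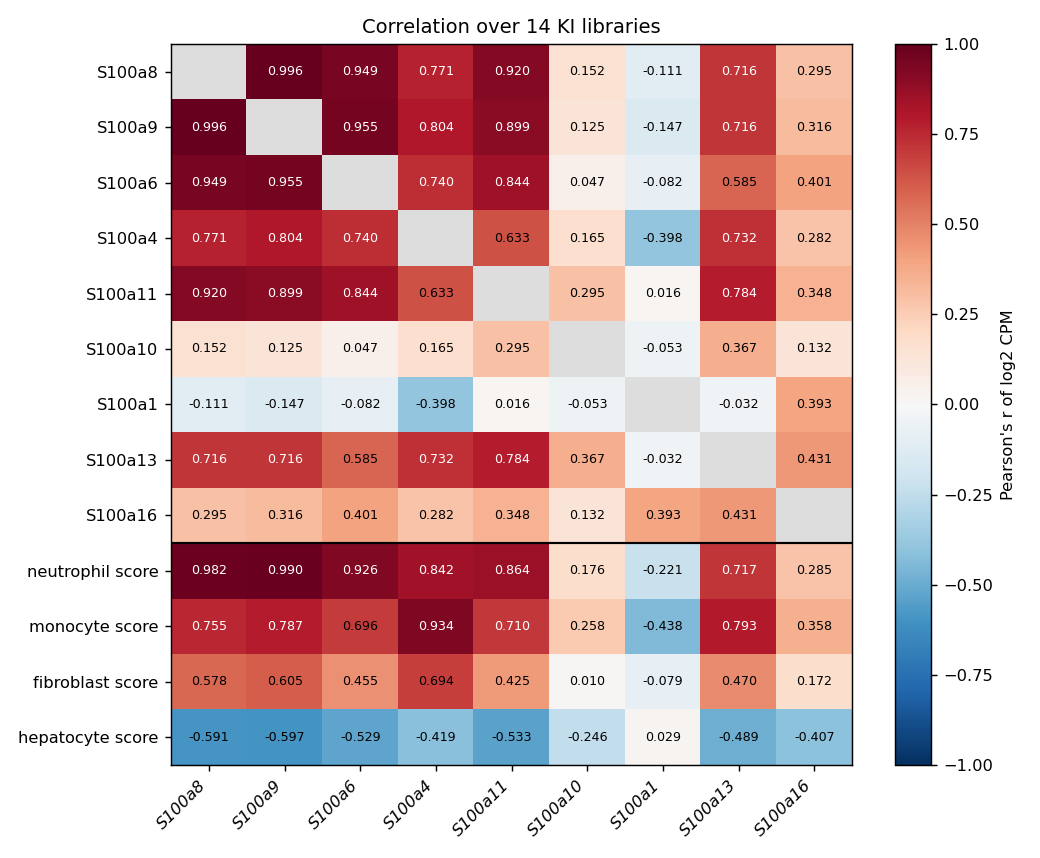
Pearson's r of log2 CPM over the 14 KI libraries without KI ASK1i replicate 5, between members (top) and between members and the mean log2 CPM of 4 marker lists (below the line). S100a8, S100a9, S100a6, S100a4 and S100a11 correlate with one another at 0.63 or more, S100a10 with these 5 at 0.295 or less, and S100a1 with them at -0.398 to 0.016.

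Among the 18 WT libraries, where levels were low, S100a8 and S100a9 had r = 0.905 (rho 0.915, permutation p = 1e-05 for both, adjusted p = 1.20e-04 and 1.60e-04; 0.867 without the 2 farthest, 0.904 in 14 numbered libraries). S100a1 and its neighbour S100a13 had r = 0.726 (rho 0.752, permutation p = 7.3e-04 and 6e-04, adjusted p = 0.00553 and 0.00388; 0.673 without the 2 farthest, 0.704 in numbered libraries). In the 14 KI libraries the same pair had r = -0.032 (rho 0.033, permutation p = 0.921 and 0.915, adjusted p = 0.959 and 0.961). S100a1 ran against S100a9 in WT, with r = -0.705 (rho -0.695, permutation p = 0.00132 and 0.00178, adjusted p = 0.00905 and 0.0103; -0.579 without the 2 farthest, -0.657 in numbered libraries). These 18 libraries pool the diets and sexes. Within the 8 WT ASK1i libraries r was 0.852 for S100a8 and S100a9, 0.425 for S100a1 and S100a13 and 0.406 for S100a1 and S100a9. Within the 10 WT control libraries it was 0.811, 0.911 and -0.909 for the same pairs, so the opposed levels of S100a1 and S100a9 did not hold within WT ASK1i. In WT control S100a1 and S100a13 were higher in every male than in every female. S100a9 averaged 2.555 CPM in the 3 males and 4.811 CPM in the 7 females. The part of sex and title set in these values was not tested. The P titles held 4 WT libraries, too few for a value of their own.

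The genes whose pattern was most like each member, by Pearson's r of log2 CPM over 33 libraries after group, sex and title set were taken out, were ranked among 13404 genes. For S100a8 they were S100a9 (0.987), Ngp (0.960) and Cd300lf (0.958), and for S100a9 they were S100a8, Retnlg (0.968) and Ngp (0.967). For S100a6 they were Anxa1 (0.940), Cd177 (0.935) and Alox5ap (0.934), and for S100a11 Ifitm1 (0.944), S100a8 (0.938) and S100a9 (0.930). The library labelled KI ASK1i replicate 5 was then left out, after group, sex and title set had been taken out over all 33 libraries. The KI ASK1i mean taken out thus still held that library, so its weight is not fully removed from the values without it. In these values S100a9 stayed first for S100a8 (0.959), Anxa1 for S100a6 (0.867) and Ifitm1 for S100a11 (0.832). Cd300lf left the first 3 of S100a8, Cd177 and Alox5ap those of S100a6, and S100a8 and S100a9 those of S100a11, where Vim and Anxa1 entered. For S100a4 they were Irf5 (0.824), Fuca2 (0.821) and Dbndd2 (0.814), and without that library Fut7 led (0.768). The fallen S100a10 was most like Lipc, the hepatic lipase (0.831), Ghitm (0.823) and Nmnat1 (0.795), none of which stayed among its first 3 without that library, when Ppid led at 0.71. S100a1 was most like Akr7a5 (0.861), Grcc10 (0.861) and Bckdha (0.848), S100a13 like Eif3k (0.823), Clta (0.776) and Tspo (0.747), and S100a16 like Gabarap (0.754), Drap1 (0.703) and Aurkaip1 (0.702). Without that library Akr7a5 stayed first for S100a1 (0.803) and Gabarap for S100a16 (0.749), and Tspo led for S100a13 (0.822).

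Of all genes, 30.3% rose and 28.8% fell in KI on the ASK1i diet, and 27.8% rose and 28.9% fell on control chow. Receptors of S100 proteins and their signalling genes were described as a list of 14. In KI 9 rose and 3 fell on the ASK1i diet, and 9 rose and 2 fell on control chow, where the median log2 fold change was 0.81 and the values below were taken. Cd14, the co-receptor of TLR4, rose most: 260 ± 69.7 CPM in KI control (SD, n = 5) and 7.71 ± 2.59 CPM in WT control (n = 10), a log2 fold change of 5.38 (SE 0.47, edgeR adjusted p = 1.93e-09). Cd33, a sialic acid receptor that binds S100A9 in humans, rose by 3.97 (SE 0.36, edgeR adjusted p = 1.93e-09), and Tlr4 by 2.05 (SE 0.24, edgeR adjusted p = 6.37e-08). Ager, which encodes RAGE, rose by 1.47 (SE 0.34, edgeR adjusted p = 5.04e-04). Ly96, the TLR4 partner MD-2, did not pass (0.33, edgeR adjusted p = 0.166), nor did Bsg (-0.03, edgeR adjusted p = 0.744), which encodes a receptor of S100A9. Nfkb1 had the smallest p of the list between the diets in KI (-0.19, edgeR adjusted p = 0.473). Ager, Ly96 and Bsg were named after their values were seen.

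Annexins are the other main partners of the family. Of 11 tested, 6 rose and 2 fell in KI on the ASK1i diet, and 6 rose and 1 fell on control chow, with a median of 0.70. On control chow the following values were found. Anxa1, the partner of S100A11, rose by 4.30 (SE 0.47, edgeR adjusted p = 2.56e-08) and Anxa3 by 1.79 (SE 0.21, edgeR adjusted p = 5.27e-08), beside the rise of Anxa2 given above. On the ASK1i diet Anxa1 rose by 3.94 and Anxa2 by 1.47 (SE 0.26, edgeR adjusted p = 2.18e-05). Anxa7 had the smallest p between the diets in KI (0.23, edgeR adjusted p = 0.429). Of 14 other binding partners 6 rose and 4 fell on control chow, with a median of -0.08. Myh9, the non-muscle myosin bound by S100A4, rose by 0.99 (SE 0.11, edgeR adjusted p = 1.21e-08) and had -0.23 between the diets in KI (edgeR adjusted p = 0.462). Capzb rose by 0.62 (SE 0.070) and Tpm1 by 0.96 (SE 0.12). Cacybp, the calcyclin-binding protein of S100A6, did not pass (-0.16, edgeR adjusted p = 0.283) and was named after its value was seen, as were Fgf1 and Il1a. Of 22 other EF-hand genes tested 14 rose and 7 fell, with a median of 0.27. The actin bundler Lcp1 rose by 1.36 (SE 0.14), Rcn2 by 1.31 (SE 0.18) and the calmodulin gene Calm2 by 0.67 (SE 0.10), and Sparc had -0.51 between the diets in KI (edgeR adjusted p = 0.429).

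Whether the ASK1 inhibitor shifts these transcripts was asked within each genotype. In KI none of the 9 members passed the threshold between the diets, where 0.0536% of all genes did, 8 in number. At an unadjusted p under 0.05 there were 1539 genes, 1 of them a member. This was S100a10, with a lowest of 11.4, a median of 17.2 and a highest of 71.96 CPM in KI ASK1i, against 12.4, 11.1, 14.8, 13.1 and 15.3 CPM in KI control. Its log2 difference was 0.65 (95% interval 0.10 to 1.21, edgeR adjusted p = 0.449), and 0.38 (edgeR adjusted p = 0.504) without replicate 5. S100a8 differed by -0.23 (95% interval -1.42 to 0.95), S100a9 by -0.33 (-1.52 to 0.86), S100a6 by -0.28 (-1.18 to 0.62), S100a4 by -0.48 (-1.25 to 0.29) and S100a11 by -0.09 (-0.77 to 0.59). Without replicate 5 the differences were -0.07 for S100a8, -0.17 for S100a9, -0.11 for S100a6, -0.34 for S100a4 and 0.05 for S100a11, and none passed. These intervals include a fall or a rise of the calprotectin transcripts by more than 1.5-fold, so differences of that size were not detectable here. S100a1, S100a13 and S100a16 were bounded more tightly, at 0.04 (-0.11 to 0.19), -0.02 (-0.29 to 0.25) and -0.07 (-0.21 to 0.08), and without replicate 5 they differed by 0.0011, -0.052 and -0.076.

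In WT the members likewise did not pass, where 1.4% of all genes were called, 209 in number. Of the 2079 genes at an unadjusted p under 0.05, 2 were members, S100a16 and S100a1. S100a16 had 15.8, 17.2 and 18.1 CPM as the lowest, median and highest of WT ASK1i, against 13.3, 15.1 and 17.8 CPM in WT control. Its log2 difference was 0.17 (95% interval 0.04 to 0.29, edgeR adjusted p = 0.177), and that of S100a1 was 0.13 (0.00 to 0.26, edgeR adjusted p = 0.346). S100a8 had 0.70, 0.95 and 1.85 CPM in WT ASK1i, against 1.18, 2.14 and 4.03 CPM in WT control, and 5 of the 8 WT ASK1i libraries lay below every WT control library. Its log2 difference was -1.02 (95% interval -2.23 to 0.19, edgeR adjusted p = 0.4658) and that of S100a9 -0.999 (-2.15 to 0.15, edgeR adjusted p = 0.444).

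A fit of the 18 WT libraries alone called both calprotectin genes, S100a8 at -0.93 and S100a9 at -0.91 (edgeR adjusted p = 0.0434 for both). That fit estimated the spread from WT libraries. Within the L6 libraries, the mean log2 CPM of 4 WT ASK1i libraries differed from that of 4 WT control libraries by -1.30 for S100a8 and -1.10 for S100a9. These WT ASK1i libraries were 3 males and 1 female and these WT control libraries 1 male and 3 females, so sex and diet are mixed in this difference. The remaining members in WT had log2 differences of 0.27 for S100a10 (95% interval -0.17 to 0.72), 0.33 for S100a6 (-0.62 to 1.27), 0.16 for S100a13 (-0.07 to 0.39), 0.09 for S100a4 (-0.74 to 0.92) and 0.01 for S100a11 (-0.62 to 0.63).

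**Figure D5:**
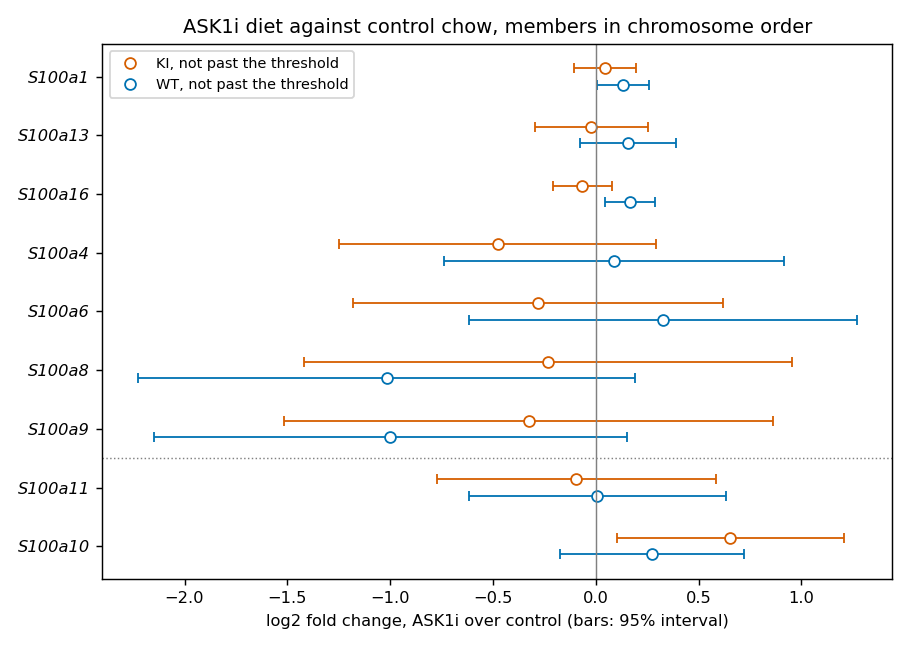
Log2 fold change of the ASK1i diet over control chow for each member in KI and in WT, with 95% intervals; open points did not pass an adjusted p of 0.05. The intervals of S100a8 run from -1.42 to 0.95 in KI and from -2.23 to 0.19 in WT, and those of S100a1 and S100a16 are the narrowest.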

How the data were processed

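RNA came from fresh frozen liver and libraries from a stranded, polyadenylation-selecting kit, per the labels' protocols. The authors deposited RSEM expected counts per gene, not normalised. RSEM 1.2.14, STAR 2.4, CASAVA 1.8.2 and build mm10 are named in the submitters' processing notes, without settings or annotation. A read matching several genes is shared out by RSEM. Table starts count from 0 and were raised by 1.

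Expected counts were rounded and fitted in R 4.3.3 with edgeR 4.0.16 (TMM, filterByExpr by group, robust quasi-likelihood F test, two-sided) with group, sex and title set over all 33 libraries. Adjusted p is the Benjamini-Hochberg value over 14934 genes per comparison, and fold changes use a prior count of 0.125. CPM used TMM library sizes, and log2 CPM a prior count of 2. Transcript lengths and shared 50-letter words came from GENCODE vM21. Relations used scipy 1.17.1. The edgeR step was tested on simulated data.

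The members, the 13 gene lists and most alternatives (RLE size factors, DESeq2 1.42.0, limma-voom 3.58.1, other filters, covariates and subsets) were chosen with earlier results of these data known. The rule for names took the 9 members and other S100 genes, Nlrp3, Alb, Ly6g, Mpo, Clec4f, Col1a1 and Krt19, from each list the 3 genes with the smallest p between genotypes on control chow and the 1 with the smallest p between the diets in KI, and the 3 genes most like each member. Neighbouring genes and partners outside it were named after their values were seen. Over 37 pairs of libraries with the same replicate number in different groups, the deviations left after group, sex and title set were correlated. The values lay between -0.359 and 0.341 (5 over 0.1). They cannot settle whether the numbers pair libraries, because a weak shared effect could go unseen. The main model used no pairing, as the numbers are not stated to mark a litter, day or batch. No library was a repeat of another of its group: over 128 pairs within groups the lowest chi-square per gene was 23.1. Pairs across groups were not compared.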

Additional observations from a re-analysis of the deposited data

Results flagged for a closer look

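Over 36 groups of values (9 members in 4 groups) 4 held a library whose gap to the nearest other library was large for the range of the group. The rule was set for about 1 such group in 20 by chance. That rate need not hold here, as the coefficient of variation in KI ASK1i was 90.0% for S100a8 and 91.0% for S100a9. The flags in KI ASK1i replicate 2 concern members that varied together, so they are not separate events. In the library labelled KI ASK1i replicate 2, S100a8 stood at 1383 CPM, S100a9 at 1805 CPM and S100a6 at 66.5 CPM, and the next highest KI ASK1i libraries had 628 CPM, 860 CPM and 35.8 CPM. In the library labelled KI ASK1i replicate 5, S100a10 stood at 71.96 CPM, and the next highest had 24.1 CPM. These values are given as measured, and their cause was not tested.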

How the results depend on the processing

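Of 59 counts of called members under the alternatives, 58 lay within 1.5 times the count reported. For the diet comparisons and the interaction the count reported was 0, so there the rule asks only for another 0. The exception was the fit on WT libraries alone, which called 2 members between the diets in WT, S100a8 and S100a9, in place of 0. With a replicate block in place of the title set, 9 members were called on the ASK1i diet, 7 on control chow (S100a13 was lost, edgeR adjusted p = 0.0573), and 0 in the other comparisons. The S100a13 call on control chow was also lost with RLE size factors (edgeR adjusted p = 0.0717), DESeq2 (adjusted p = 0.0695), no filter (0.0643), at least 1 CPM in 5 libraries (0.0512) and numbered titles alone (0.218).

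Signs of uncalled values turned as follows, and the cause was not tested. With RLE size factors the log2 difference of S100a11 between the diets in WT was -0.000908. With limma-voom it was -0.083, and the S100a9 interaction -0.014. With the replicate block S100a16 on control chow was 0.019 and S100a1 between the diets in KI -0.027. With the L code, S100a6, S100a8, S100a9, S100a11 and S100a13 between the diets in KI were 0.32, 0.15, 0.10, 0.15 and 0.016, S100a4, S100a6 and S100a11 in WT were -0.12, -0.014 and -0.11, and the interactions of S100a4, S100a6, S100a10 and S100a11 were 0.12, 0.34, -0.51 and 0.26. In the fit of WT alone S100a4 was -0.013. With numbered titles alone S100a16 on control chow was 0.0027, S100a13 between the diets in KI 0.034, and S100a4 and S100a11 in WT -0.020 and -0.029. In males alone S100a11 between the diets in KI was 0.082, S100a6, S100a11 and S100a13 in WT -0.17, -0.46 and -0.15, and the interactions of S100a1, S100a6, S100a10, S100a11 and S100a13 were 0.012, 0.094, -0.090, 0.54 and 0.14. Without KI ASK1i replicate 5, S100a11 between the diets in KI was 0.051 and its interaction 0.025.

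With each library left out in turn, the values that turned ranged between the diets in KI from -0.39 to 0.051 for S100a11, -0.10 to 0.034 for S100a13 and -0.81 to 0.037 for S100a8, and in WT from -0.10 to 0.058 for S100a11 and -0.057 to 0.19 for S100a4. The S100a11 interaction ranged from -0.41 to 0.025 and S100a16 on control chow from -0.062 to 0.0044. All calls of S100a4, S100a6, S100a8, S100a9, S100a10 and S100a11 between the genotypes were kept in all 33 such fits. Only 1 of the 5 KI control libraries is female, and in WT the low counts of S100a4 limit its value.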

Other observations

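The model's term for sex, male against female, called none of the 9 members, where 1.49% of all genes passed. S100a1 came nearest, with a log2 difference of 0.11 (SE 0.048, edgeR adjusted p = 0.285). In WT control S100a1 averaged 68.4 CPM in 3 males (63.8 to 71.9) and 55.2 CPM in 7 females (51.9 to 60.7), and the ranges did not overlap. S100a13 averaged 15.4 CPM in the 3 males (15.0 to 16.0) and 12.5 CPM in the 7 females (11.7 to 13.8), again without overlap. Of these 3 males 2 are the P-titled libraries of the group, and all 7 females are numbered, so sex and title set are largely mixed here. In WT ASK1i the sexes overlapped for both, with S100a1 at 65.4 CPM in 4 males and 66.2 CPM in 4 females, and S100a13 at 13.9 CPM in males and 16.0 CPM in females. A difference of the sex effect between diets was not tested.

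The hepatocyte marker level and S100a10 ran against each other over the 18 WT libraries, with r = -0.678 (rho -0.604, permutation p = 0.00189 and 0.00905, adjusted over 144 relations p = 0.0113 and 0.0395; -0.591 without the 2 farthest libraries, -0.750 in 14 numbered libraries; -0.759 within the 8 WT ASK1i and -0.486 within the 10 WT control libraries). Over the 14 KI libraries without replicate 5 the same relation had r = -0.246 (rho -0.165, permutation p = 0.393 and 0.575, adjusted p = 0.609 and 0.832). These 14 libraries pool the diets, and within the 9 KI ASK1i libraries among them r was -0.608. The difference between the genotypes was not tested.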
